A study of Mus musculus with 12 samples.

Results

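SP3 thymocytes were compared with SP1 thymocytes, the last CD4 single positive (SP) subset that lacks Qa-2 with the first. The 6 arrays of these subsets, 3 SP3 and 3 SP1, were taken by their sample titles from the 12 arrays of the series, and all 45037 probe sets were read. SP3 cells were Qa-2-6C10-CD69-, and SP1 cells were Qa-2-6C10+CD69+. In both, CD4+ cells without CD8, CD25 and NK1.1 were sorted, after depletion of CD8+ cells with antibody and complement, from thymi of C57BL/6 mice aged 6 to 8 weeks with no treatment. Thymi of several mice were pooled for each sort, so an array holds a pool and gives no spread between single animals. The other 6 arrays hold SP2 cells (Qa-2-6C10-CD69+) and SP4 cells (Qa-2+6C10-CD69-) sorted likewise, and serve here only for the spread and for the level before and after SP3.

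CD4 SP thymocytes arise in the cortex by positive selection and mature in the medulla before they leave the thymus. On the way they lose CD69, an early activation antigen that signals from the T cell receptor (TCR) induce and that holds cells in the tissue, and finally gain Qa-2, a nonclassical MHC class I molecule. Exit needs the sphingosine-1-phosphate receptor S1PR1, which CD69 holds away from the surface and which the transcription factor KLF2 induces.

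Each value below is an intensity in arbitrary units, already normalized between arrays, and compares 1 probe set between arrays, not one gene with another. Fold changes and differences are SP3 minus SP1 on the scale of log2(intensity + 16). They were tested with limma in a fit to all 12 arrays, once without and once with the replicate number as a block. The p-values of all probe sets were corrected together (Benjamini-Hochberg). Probe sets that rose or fell in the counts below had a fold over 2 besides an adjusted p under 0.05, and for single genes the threshold on p alone made a call. Medians of the 6 arrays lay between 30.9 and 32.8, and their 75th percentiles between 128 and 142. Replicate 3 stood apart in both subsets: the first principal component of the 6 arrays, with 70.3% of the variance, parted both replicate 3 arrays from the other 4, and the second, with 12% of the variance, parted SP3 from SP1. Deviations from the subset means correlated between 0.511 and 0.827 in the 3 SP3 and SP1 pairs of the same number. Across numbers, SP3 replicate 1 and SP1 replicate 2 correlated at 0.622, and SP1 replicate 1 and SP3 replicate 2 at 0.178. The correlations therefore do not settle whether replicates 1 and 2 are matched by number. Since this shift between replicates enters the spread of the fit without the block, the adjusted p with the replicate block is printed beside the results described below. The study's methods speak of 3 independent preparations of the subsets and name each array repeat alike in all 4 subsets, while the sources used here do not tie those names to the replicate numbers.

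With the replicate block, Igfbp4 and St8sia6 were higher in SP3 than in SP1 cells, and Tnfrsf9, Chl1, Asb2, Etv5 and Nr4a2 were lower. Also higher were 7 of 17 measured genes of thymic exit and of naive T cells and 2 of 29 interferon response genes. Over all genes, 0.319% were called higher, and the lists were chosen with earlier results of these arrays known. Without the block, 5 probe sets rose by over 2-fold (0.0111% of those tested) and 0 fell (0%), while 1349 had an unadjusted p under 0.05, 784 of them higher and 565 lower in SP3. Of the 5 probe sets that rose, 4 belong to Igfbp4 and 1 to St8sia6. With the replicate block, 40 probe sets rose (0.0888%) and 17 fell (0.0377%), and each of the 57 moved the same way in 3 of 3 pairs. The 40 name 24 genes, besides 3 unnamed probe sets and 1 that Tgtp1 and Tgtp2 share, and the 17 name 10 genes, besides 1 unnamed probe set and 1 that Ctla2a and Ctla2b share. All 3 SP3 arrays lay above all 3 SP1 arrays for 39 of the 40 and below them for 12 of the 17. Over all probe sets, 3.89% lay wholly above and 3.3% wholly below. The median log2 fold change over all probe sets was 0.0042. Calls with the block rested most on SP3 replicate 3, without which 17 of the 57 probe sets passed. 29 passed without SP3 replicate 2, 31 without SP1 replicate 1, 31 without SP1 replicate 3, 42 without SP3 replicate 1 and 44 without SP1 replicate 2, and all 57 kept their direction in each case. Without all arrays of replicate 1, 2 or 3, 12, 47 and 5 of the 57 passed. Of the calls below that no single left-out array ended, only Med14 and the Igfbp4 probe set of largest fold passed without each whole replicate. The others then reached an adjusted p of 0.0555 to 0.122 with the block (0.0689 for Klf2).

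**Figure D1:**
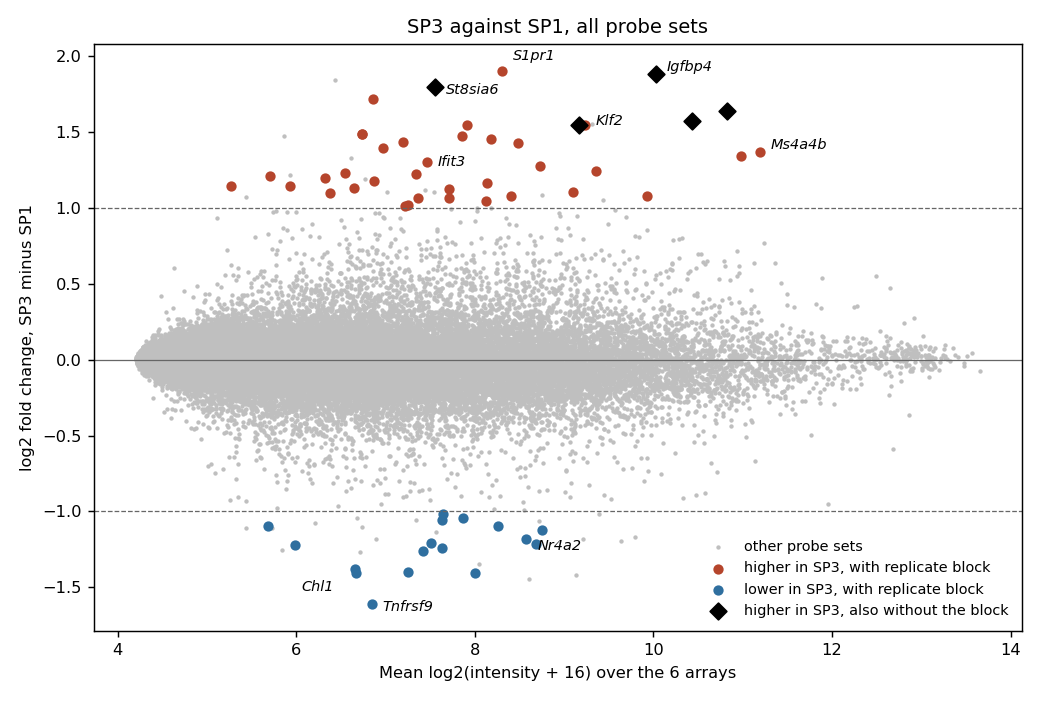
Log2 fold change of SP3 minus SP1 against the mean of log2(intensity + 16) over the 6 arrays, 1 point per probe set, with dashed lines at a 2-fold difference. The 40 probe sets that rose and the 17 that fell with the replicate block are in colour, the 5 that also rose without it are black diamonds, and some probe sets beyond the lines did not pass either fit.

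Igfbp4, which encodes a secreted protein that binds insulin-like growth factors, gave the clearest difference. Its probe set of largest fold read 1789, 2175 and 2001 in SP3, against 545, 634.5 and 422.5 in SP1. The lowest SP3 array was thus far above the highest SP1 array, and the mean was 1988 ± 193 in SP3 and 534 ± 106 in SP1 (SD, n = 3 each). The log2 fold change was 1.88 ± 0.17 (SE), with an adjusted p = 0.00536 without the block in limma. With the block, the SE was 0.14 and the adjusted p = 0.000402. The 3 other probe sets that rose without the block differed by 1.55, 1.57 and 1.64 (adjusted p = 0.000607, 0.000477 and 0.000477 with the block). Another 2 Igfbp4 probe sets rose with the block only, by 1.45 and 1.02 (adjusted p = 0.0012 and 0.0163). None of the 4 lost its call with the block when any single array was left out. In the fit without the block, by contrast, leaving out SP1 replicate 1 or SP3 replicate 2 or 3 ended all 4 calls, and the probe set of largest fold then had an adjusted p of 0.0544, 0.0791 and 0.0553. Read by its leading probe set, Igfbp4 was at 1152 ± 66 in SP2 and 3200 ± 283 in SP4 (SD, n = 3 each). SP2 minus SP1 was 1.10 there (adjusted p = 0.0393 with the block), while the other 5 had differences of 0.67 to 0.94 that missed the threshold (adjusted p of 0.0821 to 0.226 with the block). Comparisons with SP2 and SP4 share the SP3 or SP1 arrays with the main comparison, so they are not independent of it. The RefSeq window from 250 bases before to 50 bases after the Igfbp4 start site (GRCm38.p6, chr11:99040994-99041293, plus strand) is shown because Klf2 and Klf3 rose too. Capitals mark its 1 match to CCACACCC, a core that Krüppel-like factors can bind, searched on both strands, which 3.56% of all 32851 windows hold. The match begins 48 bases before the start site and lies on the reverse strand. Among the matched genes, 2 of 20 that rose (Igfbp4 and Ifit3) and 0 of 9 that fell hold this motif, in 2 of 23 and 0 of 16 windows. TGTTTAC, a motif of forkhead box O factors, was searched likewise. It is held by 1 of the 20 (Ifi213) and 2 of the 9 (Bcl2l11 and Etv5), and by 3.65% of all windows. A match is a description of the letters, not a site of binding.

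Igfbp4: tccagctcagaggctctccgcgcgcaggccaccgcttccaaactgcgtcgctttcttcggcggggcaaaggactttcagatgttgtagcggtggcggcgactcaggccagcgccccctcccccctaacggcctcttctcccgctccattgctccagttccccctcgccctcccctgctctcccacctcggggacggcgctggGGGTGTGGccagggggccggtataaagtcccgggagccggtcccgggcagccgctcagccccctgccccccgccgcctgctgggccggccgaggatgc

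St8sia6 encodes a sialyltransferase that adds sialic acid to surface glycans. Its values were 270, 360.2 and 380 in SP3, against 101, 107 and 54.7 in SP1, with no overlap. The log2 fold change was 1.80 ± 0.23 (SE; adjusted p = 0.046 without the block and 0.00282 with it, limma). The rise was largest in replicate 3, at 2.48, against 1.29 in replicate 1 and 1.61 in replicate 2. With the block no single array, left out, ended this call. Without the block, leaving out any one of the 12 arrays did, with an adjusted p of up to 0.269 (without SP3 replicate 3). Another 2 of its probe sets rose with the block, by 1.72 and 1.10. Among 24 measured glycosyltransferases, St8sia6 alone was called with the block, where 0.319% of all genes were called higher and 0.121% lower. St3gal2, which adds sialic acid in another linkage, read 77.0, 127 and 83.3 in SP3, against 163, 230.5 and 178 in SP1, and did not pass (log2 fold change -0.90, adjusted p = 0.149 with the block).

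**Figure D2:**
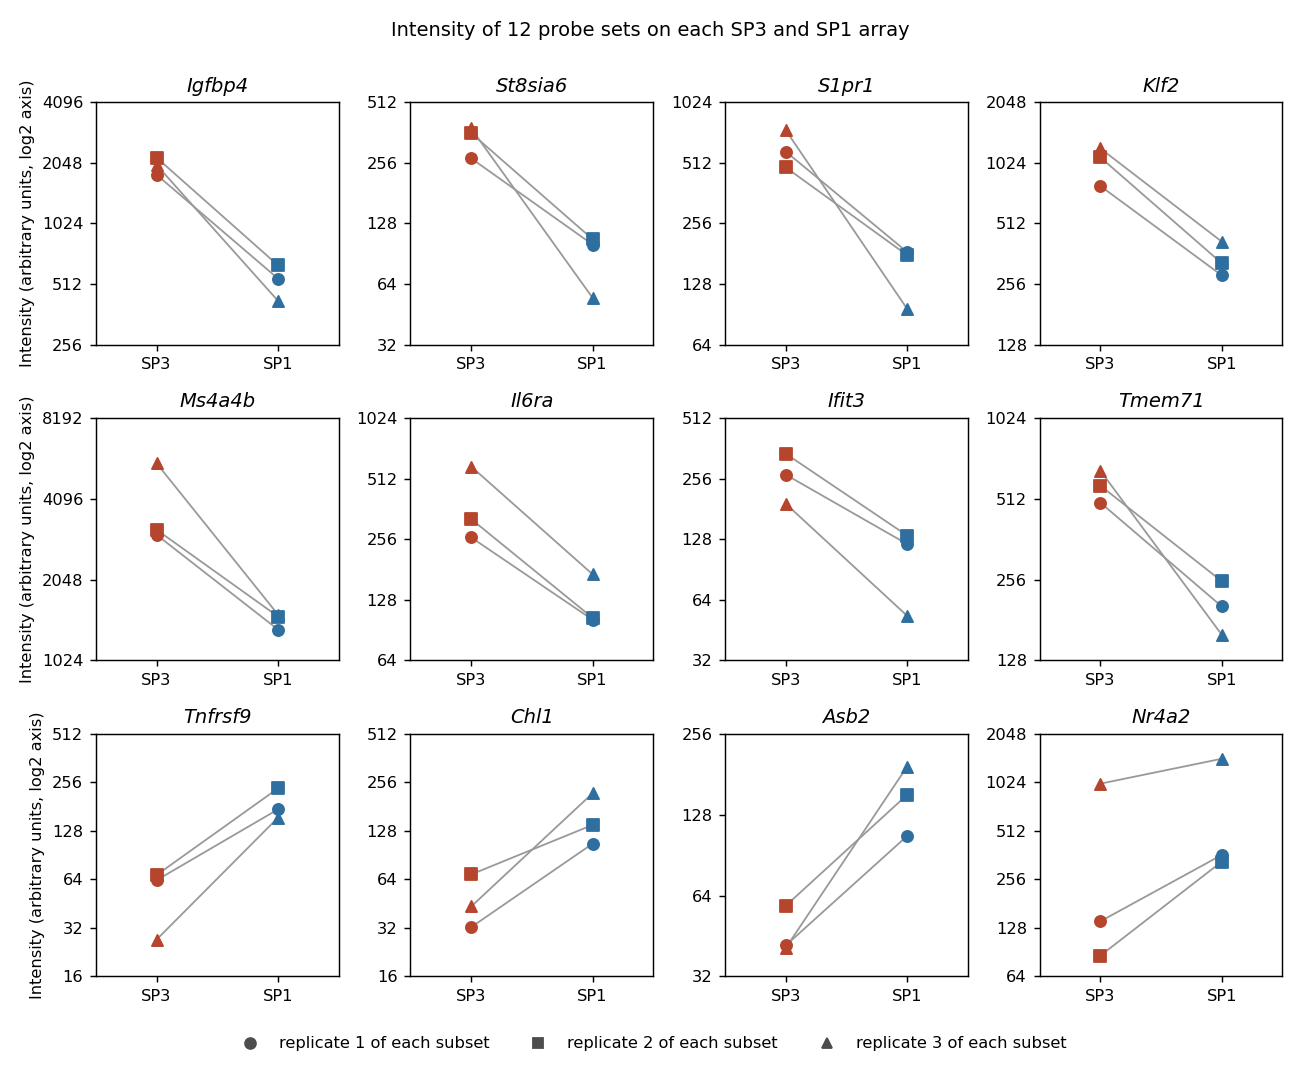
Intensity of 12 probe sets on each array, on log2 axes, with SP3 (red) left of SP1 (blue) and a line between arrays of the same replicate number. SP3 lies above SP1 in the first 8 panels and below it in Tnfrsf9, Chl1 and Asb2, while for Nr4a2 the replicate 3 arrays, 1006 in SP3 and 1437 in SP1, lie above the other arrays of both subsets.

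Genes of thymic exit and of naive T cells held the largest share of calls among the gene lists read here. Of 17 measured, 7 rose with the block (S1pr1, S1pr4, Klf2, Klf3, Ms4a4b, Ms4a6b and Itgb7) and 0 fell, where 0.319% of all 18193 genes, each read by its probe set of highest mean, were called higher and 0.121% lower. Without the block none of the 17 was called, where 0.011% of all genes were called higher and 0% lower. The median log2 fold change of the list was 0.59, against 0.0056 over all genes. The list was chosen with earlier results of these arrays known.

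S1pr1 had the largest fold of the 57 probe sets that changed with the block. It read 583, 486.5 and 744 in SP3, against 185, 178 and 96.4 in SP1, so that every SP3 array was above 2 times the highest SP1 array. The log2 fold change was 1.90 ± 0.25 (SE with the block; adjusted p = 0.0893 without the block and 0.00697 with it, limma). Without SP3 replicate 3 the blocked call was lost (adjusted p = 0.0796). SP2 cells read 191 ± 67.8, with a difference of 0.29 from SP1 (adjusted p = 0.774 with the block), and SP3 was above SP2 (1.61, adjusted p = 0.0303 with the block). SP4 cells read 966 ± 140 (SD, n = 3), a further 0.67 that missed the threshold (adjusted p = 0.319 with the block). S1pr4, a second receptor for sphingosine-1-phosphate on lymphocytes, had 314, 286 and 281 in SP3, against 133, 135 and 111 in SP1. It rose with the block (log2 fold change 1.13 ± 0.13, SE; adjusted p = 0.00417), lost the call only without SP3 replicate 3 (adjusted p = 0.0518), and like S1pr1 it differed between SP3 and SP2 (0.77, adjusted p = 0.0408 with the block).

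Klf2 and Klf3 encode Krüppel-like factors, of which KLF2 drives S1pr1 in T cells and KLF3 mostly represses. Klf2 read 786.5, 1092 and 1209 in SP3, against 283, 325 and 416 in SP1. Replicate 3 was highest in both subsets, and the log2 differences within the pairs were close to each other, at 1.43, 1.70 and 1.503. The log2 fold change was 1.54 ± 0.17 (SE with the block), and its adjusted p of 0.356 without the block was 0.00282 with it, a call that no single left-out array ended. Klf3 read 425, 411 and 624 in SP3, against 233, 213 and 209 in SP1 (log2 fold change 1.08, adjusted p = 0.0117 with the block). That call was lost on leaving out SP1 replicate 1 or SP3 replicate 2 or 3 (adjusted p = 0.0568, 0.0864 and 0.118). In SP2 cells Klf2 stood at 638 ± 268 (SD, n = 3), a level not told from SP1 (adjusted p = 0.171 with the block) or from SP3 (0.12). Klf3 stood at 221 ± 66.9 in SP2, against 218 ± 12.6 in SP1 (SD, n = 3 each), and SP3 was above SP2 by 1.10 (adjusted p = 0.0167 with the block). Foxo1, the factor upstream of Klf2 in T cells, read 689, 924 and 1312 in SP3, against 530, 544 and 830 in SP1. It was higher in each pair but did not pass (log2 fold change 0.59, adjusted p = 0.117 with the block).

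Ms4a4b and Ms4a6b encode membrane proteins of T cells. Ms4a4b was among the brightest probe sets that rose, with 3010, 3144 and 5561 in SP3, against 1335, 1493 and 1518 in SP1 (log2 fold change 1.36, adjusted p = 0.0163 with the block). Ms4a6b read 258, 331 and 714 by its probe set of largest fold in SP3, against 134, 124 and 118 in SP1 (1.54, adjusted p = 0.0134 with the block). SP3 replicate 3 was the highest array for both genes. Without it the blocked adjusted p was 0.144 for Ms4a4b and 0.113 for Ms4a6b. Ms4a4b also lost the call without SP3 replicate 2, SP1 replicate 1 or SP1 replicate 3 (adjusted p = 0.123, 0.101 and 0.0882), and Ms4a6b without SP3 replicate 2 (0.0924). The brightest Ms4a6b probe set, by which it counts among the 7 of 17, rose by 1.34 (adjusted p = 0.0191 with the block) and lost its call without SP1 replicate 1 or 3 or SP3 replicate 2 or 3 (adjusted p = 0.0842, 0.0674, 0.0894 and 0.137). Itgb7, a chain of gut-homing integrins, had closely spaced values, 775, 846 and 750 in SP3, against 358, 403 and 320 in SP1. It rose with the block (1.10, adjusted p = 0.00521). This call was lost without SP1 replicate 1 or SP3 replicate 3 (adjusted p = 0.0516 and 0.0646). SP2 cells held 632 ± 101 (SD, n = 3) of Itgb7, a level not told from SP1 (adjusted p = 0.123 with the block) or from SP3 (0.519). Amigo2, an adhesion protein with leucine-rich repeats, rose by 1.13 with the block (adjusted p = 0.00482) in 1 probe set, and without SP3 replicate 3 its adjusted p was 0.0538. A second Amigo2 probe set differed by 0.19 (adjusted p = 0.721 with the block). Itgb7 and Amigo2 were the 2 genes that rose among 21 measured integrins and adhesion molecules, of which Chl1 fell. Over all genes, 0.319% were called higher and 0.121% lower with the block.

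The receptors that place cells in the cortex and medulla gave no call in this comparison: 0 of 16 chemokine receptors, plexins and related genes passed with or without the block, and 7 had an unadjusted p under 0.05 with the block. So had 1506 of all 18193 genes, the share to set beside each such count below. Ccr9, the receptor for the thymic chemokine CCL25, read 1085, 1728 and 1005 in SP3, against 1516, 2189 and 1811 in SP1 (log2 fold change -0.55, adjusted p = 0.304 with the block). Ccr4 read 70.2, 92.3 and 43.6 in SP3, against 106, 155 and 64.1 in SP1 (-0.53, adjusted p = 0.221 with the block). Both were lower in SP3 in each pair, while the groups overlapped. Ccr7, which guides cells to the medulla, stood at 1505, 1535 and 2497 in SP3 and 1395, 1318 and 2284 in SP1. Its difference of 0.15 (adjusted p = 0.862 with the block) had the same sign in each pair and, with the block, whichever array was left out. In the fit without the block it turned to -0.086 when SP3 replicate 3 was left out. Cxcr4 and Plxnd1, receptors of early thymocytes, had log2 fold changes of 0.31 and -0.33 with adjusted p of 0.66 and 0.643 with the block.

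Of 29 measured genes of the interferon response list, 2 rose with the block, Ifit3 and Iigp1, against 0.319% of all genes, and 0 did so without it. The other 27 were not called, 28 of the 29 had a log2 fold change above 0, as did 52.6% of all genes, and the list's median was 0.42. Ifit1bl1, Ifi213 and the Tgtp genes, described with them below, are interferon-induced genes outside that list that rose with the block. Ifit3, which encodes an antiviral protein with tetratricopeptide repeats, read 268, 341 and 192 in SP3, against 121, 134 and 53.3 in SP1 (log2 fold change 1.30 ± 0.15, SE with the block; adjusted p = 0.955 without the block and 0.00317 with it). Replicate 3 was lowest in both subsets, and no single left-out array ended this call with the block. Ifit1bl1, a gene of the same family, had 182, 220.3 and 165 in SP3, against 69.2, 94.1 and 34.04 in SP1 (1.39, adjusted p = 0.00367 with the block), again with a call that no left-out array ended. Ifi213, of the interferon-inducible p200 family, held 1024, 1036 and 930.5 in SP3, against 476, 561 and 259 in SP1 (1.24, adjusted p = 0.00899 with the block). It lost the call without SP1 replicate 1 or 3 or SP3 replicate 2 or 3, with adjusted p of 0.0507 to 0.075. Iigp1, an interferon-inducible GTPase, passed only narrowly (0.80, adjusted p = 0.0279 with the block). It read 198.5, 361.5 and 532.5 in SP3, against 118, 180.2 and 305 in SP1, and 7 of the 12 arrays, left out singly, ended the call (adjusted p of up to 0.213, without SP1 replicate 1). The probe set that Tgtp1 and Tgtp2, GTPases of the same kind, share rose by 1.07 with the block (adjusted p = 0.0138). Ifit1 read 236, 443 and 799.6 in SP3, against 134, 192.5 and 457 in SP1, and missed the threshold (0.89, adjusted p = 0.0664 with the block).

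Start-site windows of Ifit3, Ifit1bl1, Ifi213 and Ms4a6b are shown, the genes that rose and hold GAAANNGAA, with every match in the printed window in capitals. This is the core of the element that interferon regulatory factors bind, and it was searched on both strands. Of the 24 genes that rose with the block, 20 matched the RefSeq table, with 23 windows, of which 5 hold the motif, in Ifit3, Ifit1bl1, Ifi213 and Ms4a6b. Of 16 windows of the 9 matched genes that fell, 2 hold it, in Asb2 and Chl1, and 8.56% of all 32851 windows do. Build and strand are GRCm38.p6, chr19:34583279-34583578 (plus) for Ifit3, chr19:34601919-34602218 (minus) for Ifit1bl1, chr1:173599223-173599522 (minus) for Ifi213 and chr19:11518309-11518608 (plus) for Ms4a6b. Ifit3 has 3 matches, which begin 155, 121 and 102 bases before the start site, Ifit1bl1 has 2 (at 192 and 103 bases) and Ifi213 and Ms4a6b have 1 each (at 73 and 206 bases). A second Ifit1bl1 window, counted among the 5 and not printed, has 2 matches that begin 111 and 22 bases before its start site.
Ifit3: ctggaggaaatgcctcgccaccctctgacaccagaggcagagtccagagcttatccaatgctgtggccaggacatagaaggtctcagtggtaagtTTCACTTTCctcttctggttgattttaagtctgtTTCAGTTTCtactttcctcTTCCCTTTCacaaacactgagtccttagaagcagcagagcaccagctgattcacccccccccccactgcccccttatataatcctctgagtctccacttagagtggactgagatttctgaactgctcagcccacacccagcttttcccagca
Ifit1bl1: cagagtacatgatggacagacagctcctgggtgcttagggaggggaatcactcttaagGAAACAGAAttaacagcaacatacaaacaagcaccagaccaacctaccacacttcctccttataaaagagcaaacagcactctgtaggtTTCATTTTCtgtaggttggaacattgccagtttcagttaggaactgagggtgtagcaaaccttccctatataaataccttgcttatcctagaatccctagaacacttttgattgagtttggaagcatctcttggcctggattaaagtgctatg
Ifi213: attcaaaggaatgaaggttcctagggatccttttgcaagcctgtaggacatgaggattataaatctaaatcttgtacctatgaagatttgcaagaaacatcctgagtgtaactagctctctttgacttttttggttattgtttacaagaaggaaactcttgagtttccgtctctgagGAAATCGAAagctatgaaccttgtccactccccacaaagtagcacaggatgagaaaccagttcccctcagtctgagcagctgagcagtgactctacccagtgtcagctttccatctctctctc
Ms4a6b: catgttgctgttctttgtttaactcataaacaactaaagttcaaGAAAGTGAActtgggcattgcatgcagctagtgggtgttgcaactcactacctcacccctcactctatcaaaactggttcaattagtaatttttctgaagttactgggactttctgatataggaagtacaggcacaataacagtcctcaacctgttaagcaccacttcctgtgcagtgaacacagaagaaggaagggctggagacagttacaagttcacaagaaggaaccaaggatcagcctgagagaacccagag

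MHC class I genes moved little. 0 of 14 genes of class I and antigen presentation were called, and 5 had an unadjusted p under 0.05 with the block. H2-K1 read 7498, 7323 and 6169 in SP3, against 5641, 5411 and 3539 in SP1, with no overlap, and missed the threshold (log2 fold change 0.55, adjusted p = 0.073 with the block). H2-D1 had a difference of 0.38 (adjusted p = 0.312 with the block).

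Tnfrsf9 and Nr4a2, which TCR signals are known to induce, were among the genes that fell. Tnfrsf9 encodes CD137, a costimulatory receptor of activated T cells. It read 63.2, 68.1 and 27.0 in SP3, against 174, 235.2 and 155 in SP1 by its probe set of largest fold, with no overlap. The log2 fold change was -1.61 ± 0.17 (SE with the block; adjusted p = 0.376 without the block and 0.0027 with it, limma), and no single left-out array ended the blocked call. A brighter probe set also fell, by 1.10 (adjusted p = 0.00418 with the block), with 188, 206 and 189 in SP3, against 461, 466 and 377 in SP1. Among the 4 subsets SP2 had the highest mean of Tnfrsf9. SP2 read 351 ± 117 (SD, n = 3) by the first probe set, 0.81 above SP1 without passing (adjusted p = 0.174 with the block, and 0.109 by the brighter probe set), and SP3 was lower than SP2 by 2.42 (adjusted p = 0.000101 with the block). SP4 cells stood at 103 ± 34.5, above SP3 (0.82, adjusted p = 0.0407 with the block), which the brighter probe set did not show at the threshold (0.52, adjusted p = 0.0945).

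Nr4a2 encodes a nuclear receptor that TCR signals induce within hours. Its values were 140, 85.9 and 1006 in SP3, against 363, 330 and 1437 in SP1. Replicate 3 was several times higher than the others in both subsets, so the subsets overlapped although SP3 was lower in each pair, by 1.28, 1.76 and 0.51. The log2 fold change was -1.18, with an adjusted p of 0.9999 without the block and 0.0191 with it. That call was lost without SP1 replicate 1 or 2 or any SP3 array (adjusted p of 0.0518 to 0.158). Another 2 Nr4a2 probe sets fell with the block, by 1.12 and 1.04. Of the 30 TCR signal and immediate early genes measured, 24 had a log2 fold change below 0 (median -0.21), and Nr4a2 alone was called. Over all genes, 52.6% had a log2 fold change above 0, and 0.121% were called lower with the block. Nr4a1, a reporter of TCR signal strength, read 1440, 1496 and 2547 in SP3, against 2466, 2444 and 3688 in SP1 (-0.67, adjusted p = 0.081 with the block). Nr4a3 and Dusp5, a phosphatase that acts on ERK, had differences of -1.02 and -0.88 (adjusted p = 0.117 and 0.0716 with the block). Replicate 3 was the highest of its subset for Nr4a1 in SP3 and in SP1.

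Chl1, Asb2 and Etv5 fell together with the block and were low in SP4 cells too. Chl1, an adhesion molecule of the L1 family, read 32.3, 68.7 and 43.4 in SP3, against 107, 139 and 219 in SP1 (log2 fold change -1.402 ± 0.18, SE with the block; adjusted p = 0.251 without the block and 0.00605 with it). In SP4 it stood at 14.1 ± 2.89 (SD, n = 3), lower than in SP3 by 1.06 (adjusted p = 0.0131 with the block). Asb2, which recruits substrates to a ubiquitin ligase, read 41.7, 58.6 and 40.8 in SP3, against 107, 152 and 194 in SP1 (-1.38, adjusted p = 0.00751 with the block), with 28.75 ± 3.5 in SP4 (SD, n = 3). Without SP3 replicate 3 the adjusted p with the block was 0.0664 for Chl1 and 0.0796 for Asb2. Etv5, an ETS family factor, was dim, with 19.9, 37.6 and 21.1 in SP3, against 66.3, 78.8 and 101 in SP1 (-1.22, adjusted p = 0.0109 with the block). Its call was lost without any one of the SP3 arrays (adjusted p = 0.069, 0.0535 and 0.0957), and its other 2 probe sets, at -0.53 and -0.56, did not pass either fit. C1qtnf12, a secreted protein of the adiponectin family, had 96.3, 140 and 207 in SP3, against 264, 271 and 887 in SP1 (-1.404, adjusted p = 0.0146 with the block). SP1 replicate 3 was far above the other 2 SP1 arrays, and without it the adjusted p was 0.0672. The call was also lost without SP1 replicate 1 or any one of the SP3 arrays (adjusted p of 0.0507 to 0.129).

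Bcl2l11, which encodes the cell death protein BIM that acts in negative selection, was lower in SP3 in each pair by all its probe sets. Their log2 fold changes were -0.89 to -1.10, and only some of them passed. The probe set of largest fold among those that passed read 108, 135 and 131 in SP3, against 226, 287 and 294 in SP1, and fell with the block (log2 fold change -1.01, adjusted p = 0.0203). The brightest probe set read 539, 672 and 2168 in SP3, against 1223, 1272 and 3475 in SP1 (-0.91), with an adjusted p of 0.174 with the block. Another probe set passed with a smaller fold (-0.89, adjusted p = 0.0413 with the block). The remaining ones, at -1.10 and -0.98, did not pass (adjusted p = 0.127 and 0.114 with the block). Each of the 6 SP3 and SP1 arrays, left out singly, ended the call of the first probe set (adjusted p of 0.06995 to 0.1397). Med14, a subunit of the Mediator complex, fell by 1.4 in 1 probe set (56.4, 65.9 and 123 in SP3, against 176, 199 and 351 in SP1, adjusted p = 0.000607 with the block), a call that no single left-out array ended. Another passed with a smaller fold (-0.89, adjusted p = 0.00418 with the block). In its brightest probe set it had a log2 fold change of -0.45 (adjusted p = 0.431 with the block). Ctla2a, an inhibitor of cysteine proteases that shares sequence with Ctla2b, read 54.7, 110.4 and 223 in SP3, against 177, 212 and 625 in SP1 (-1.24, adjusted p = 0.0191 with the block), with overlap between the subsets. The call of Ctla2a was lost without any SP1 array, SP3 replicate 1 or SP3 replicate 3 (adjusted p of 0.0667 to 0.136).

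Mef2c, a transcription factor expressed in B and myeloid cells, fell in 1 probe set of low signal, with 14.2, 28.6 and 15.8 in SP3, against 68.0, 89.3 and 31.7 in SP1 (log2 fold change -1.10, adjusted p = 0.00949 with the block). Its brightest probe set was not called (-0.55, adjusted p = 0.389 with the block), and leaving out SP1 replicate 1 or 2 or SP3 replicate 1 or 2 ended the call (adjusted p of 0.0545 to 0.06995). Markers of those cells stood high on the same SP1 arrays. The summed intensity of 24 myeloid and dendritic markers was 2143, 2118 and 2184 in SP3, against 5632, 5332 and 1420 in SP1. The sum of 12 B cell markers was 2731, 2353 and 1612 in SP3, against 3395, 3827 and 952 in SP1. Cd74, the invariant chain of MHC class II, read 298, 243 and 146 in SP3, against 1196, 1122 and 176 in SP1 (-1.44, adjusted p = 0.232 with the block). Ms4a1, which encodes the B cell antigen CD20, read 34.9, 33.0 and 36.8 in SP3, against 124, 213 and 22.5 in SP1 (-1.08, adjusted p = 0.353 with the block). Of the 24 myeloid markers 20 and of the 12 B cell markers 9 had a log2 fold change below 0, none was called (2 and 4 had an unadjusted p under 0.05 with the block), and none was listed at 0. Over all genes, 52.6% had a log2 fold change above 0. The part of such cells in the fall of Mef2c was not tested. In bulk samples, fewer cells of a type and less RNA per cell cannot be told apart.

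Among receptors for cytokines, 2 of 25 measured rose with the block and 0 fell, where 0.319% of all genes were called higher and 0.121% lower. Il6ra, the ligand-binding chain of the interleukin-6 receptor, read 262, 323 and 589 in SP3, against 102, 104 and 171.5 in SP1 (log2 fold change 1.47 ± 0.16, SE with the block). Replicate 3 was highest in both subsets. The adjusted p was 0.9999 without the block and 0.00293 with it, and no single left-out array ended the blocked call. A second, dimmer Il6ra probe set differed by 0.47 (adjusted p = 0.376 with the block). Il17ra, the receptor for interleukin-17, read 886, 1096 and 1018 in SP3, against 612, 653 and 641 in SP1. Its difference of 0.64 barely passed with the block (adjusted p = 0.0474), and 10 of the 12 arrays, left out singly, ended the call (adjusted p of up to 0.283, without SP3 replicate 2). Tgfbr2, a receptor for TGF-β, had 1195, 1413 and 1833 in SP3, against 948, 1002 and 1250 in SP1 (0.45, adjusted p = 0.498 with the block).

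Among 24 costimulatory receptors and ligands, 1 rose and 2 fell with the block, where 0.319% of all genes were called higher and 0.121% lower. Tnfrsf25, a death domain receptor that costimulates T cells, read 153, 203 and 128 in SP3, against 81.7, 78.6 and 67.3 in SP1 (log2 fold change 0.93, adjusted p = 0.0258 with the block). Tnfsf11, which encodes the ligand RANKL that acts on medullary epithelium, read 123.5, 189 and 666 in SP3, against 341, 344 and 1052 in SP1 (-0.94, adjusted p = 0.0344 with the block), and replicate 3 was high in both subsets. Each of the 6 SP3 and SP1 arrays, left out singly, ended the call of Tnfrsf25 (adjusted p of 0.0875 to 0.191). Tnfsf11 lost its call without 7 of the 12 arrays (adjusted p of up to 0.247, without SP1 replicate 1). Tnfrsf9 is the other gene that fell. Icos, Ctla4 and Pdcd1, receptors of activated T cells, had differences of 0.17, 0.03 and -0.01 (adjusted p = 0.839, 0.983 and 0.996 with the block). In the fit without the block the sign of each changed when an array was left out, while with the block Icos stayed at 0.01 to 0.35. Dtx1, a target of Notch signals, rose with the block by 0.99 (adjusted p = 0.00729). It read 236, 253 and 382.5 in SP3, against 125, 133 and 148 in SP1, and was lost without SP3 replicate 2 or 3 (adjusted p = 0.0617 and 0.0769).

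Several further genes rose with the block. Rflnb, which binds filamin, read 134, 123 and 253.5 in SP3, against 50.5, 45.9 and 46.1 in SP1 (log2 fold change 1.49, adjusted p = 0.00538 with the block). Its SP2 level was 52.6 ± 19.8 (SD, n = 3), close to SP1, and SP3 exceeded SP2 by 1.42 (adjusted p = 0.0145 with the block). Rasa3, which switches off Ras and Rap GTPases, read 537, 641 and 771 in SP3, against 247, 268 and 253 in SP1 (1.28, adjusted p = 0.0772 without the block and 0.00479 with it). Both calls were lost without SP3 replicate 3 (adjusted p = 0.0646 for Rflnb and 0.0572 for Rasa3). Tmem71, a membrane protein, read 496, 574 and 653 in SP3, against 203.5, 253 and 160 in SP1 (1.43, adjusted p = 0.0521 without the block and 0.00329 with it), and no single left-out array ended its blocked call. Gm11346 rose by 1.43 with the block (adjusted p = 0.0011), and no single left-out array ended that call either. Arsb, a lysosomal sulfatase, read 79.6, 138 and 182.5 in SP3, against 44.7, 56.6 and 36.1 in SP1 (1.22, adjusted p = 0.0191 with the block), and without SP3 replicate 2 or 3 its adjusted p was 0.14 and 0.144, without SP1 replicate 1 or 3 it was 0.0516 and 0.0668. The other genes that rose, Btbd11, Klhdc2, Tlr1 and A630023P12Rik, had log2 fold changes of 1.04 to 1.18 and adjusted p of 0.00835 to 0.0101 with the block. Each of these lost its call without SP3 replicate 2 or 3, and Btbd11, Tlr1 and A630023P12Rik also without SP1 replicate 1. Btbd11 and A630023P12Rik lost it without SP1 replicate 3 as well (the adjusted p over all these cases was 0.0548 to 0.107).

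Zbtb16, which encodes PLZF, the factor of innate-like T cells, was dim in both subsets. It read 40.0, 81.3 and 75.9 in SP3, against 29.8, 17.1 and 10.9 in SP1 by its probe set of largest fold among those that passed, and rose with the block (log2 fold change 1.21, adjusted p = 0.0421). Its brightest probe set read 61.4, 121 and 59.1 in SP3, against 36.9, 25.8 and 12.9 in SP1, with the same difference of 1.21 and an adjusted p of 0.0655 with the block. 8 of the 12 arrays, left out singly, ended that call (adjusted p of up to 0.269, without SP3 replicate 2). Zbtb16 stood at 234 ± 38.3 (SD, n = 3) in SP4 by the same probe set. Of 22 measured NKT and innate-like markers, Zbtb16 among them, 11 were higher and 11 lower in SP3 by log2 fold change, each read by its brightest probe set. None was called, 7 had an unadjusted p under 0.05 with the block, and none was listed at 0. Their sum was 2036, 1928 and 2010 in SP3, against 2707, 2687 and 837 in SP1. Il18r1, one of them, read 101, 174 and 184 in SP3, against 73.9, 75.8 and 29.4 in SP1 (1.19, adjusted p = 0.247 with the block). The log2 fold changes of the list ran from -1.27 to 1.21 with a median of -0.05, so its largest difference was a lower level in SP3. The part of innate-like cells in the difference of Zbtb16 was not tested.

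**Figure D3:**
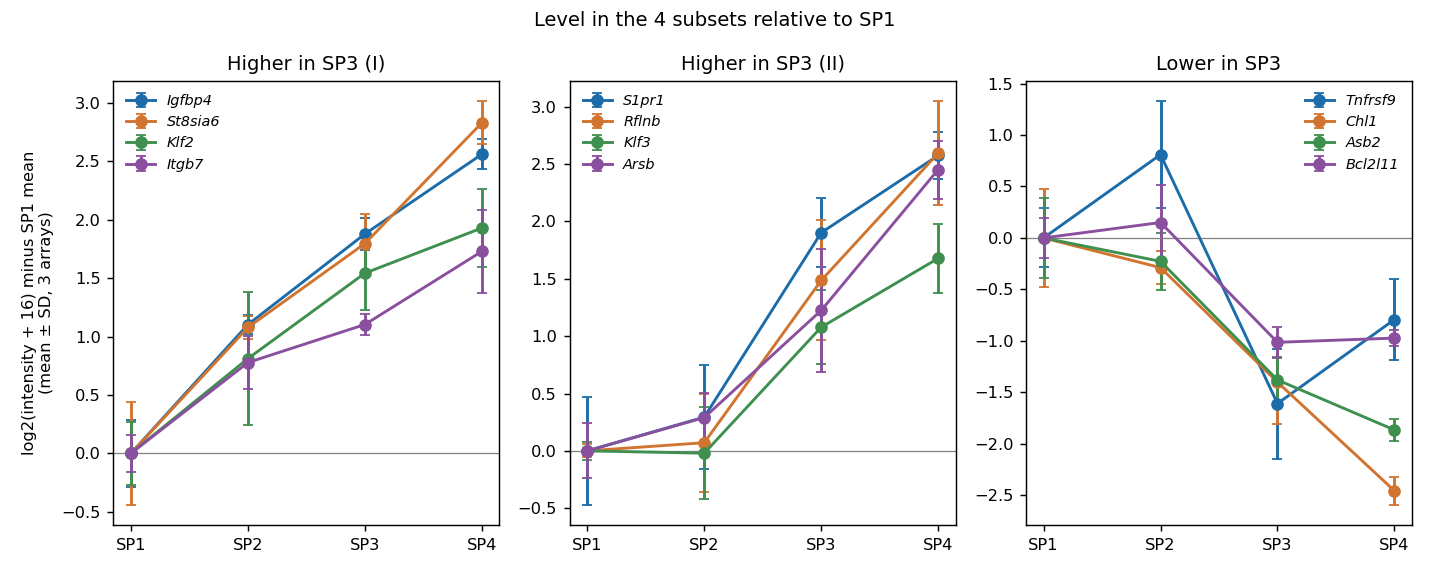
Mean log2(intensity + 16) of 12 genes in the 4 subsets relative to the SP1 mean, with SD over 3 arrays. SP2 minus SP1 is 0.78 to 1.10 for Igfbp4, St8sia6, Klf2 and Itgb7, of which Igfbp4 alone passed with the block (0.123 to 0.171 for the others), and -0.02 to 0.29 for S1pr1, Rflnb, Klf3 and Arsb, while Tnfrsf9 has its highest mean in SP2.

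The sort markers were read as a check of the labels. Cd69 RNA read 662, 595 and 580 in SP3, against 868, 1112 and 473 in SP1, so it was lower in SP3 in replicates 1 and 2 and higher in replicate 3 (log2 fold change -0.33, adjusted p = 0.777 with the block). Cd69 RNA did not part the subsets that the surface antigen defines. Cd4 read 646, 1027 and 423.5 in SP3, against 730.5, 958 and 608 in SP1 (-0.19, adjusted p = 0.811 with the block). Cd8a read 1838, 893 and 81.6 in SP3, against 765, 1083 and 55.5 in SP1 (0.47, adjusted p = 0.826 with the block), so replicates 1 and 2 of both subsets held Cd8a RNA although sorted as CD8-. The probe set that H2-Q7 and H2-Q9 of the Qa-2 family share read 785, 526 and 565 in SP3, against 549, 516 and 180 in SP1 (0.70, adjusted p = 0.386 with the block). Il2ra, the gene of CD25, was at 40.1 to 45.4 in SP3 and at 32.4 to 80.6 in SP1. The probe set shared by Klrb1b and Klrb1c, of which Klrb1c encodes NK1.1, was at 21.9 to 30.1 in SP3 and at 21.98 to 31.8 in SP1. Thy1 read 2666, 2400 and 1639 in SP3, against 1852, 2025 and 770 in SP1 (0.61, adjusted p = 0.691 with the block). Cd24a, lost as thymocytes mature, read 2463, 1452 and 1880 in SP3, against 2545, 2579 and 2359 in SP1. It was lower in SP3 in each pair and missed the threshold (-0.40, adjusted p = 0.467 with the block).

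Cd8a went with other genes of CD4+CD8+ double positive thymocytes. The sum of 20 such markers was 23400, 16020 and 8724 in SP3, against 16200, 17110 and 8279 in SP1, with 16 of the 20 above 0 in log2 fold change (median 0.46), none called, 6 with an unadjusted p under 0.05 with the block and none at 0. Over all genes, 52.6% were above 0. Rag1, the recombinase of TCR gene assembly, read 2280, 1563 and 343.5 in SP3, against 1258, 1111 and 20.04 in SP1 (1.55, adjusted p = 0.603 with the block). Cell cycle genes moved on the same arrays. Their sum over 28 genes was 41250, 29150 and 19480 in SP3, against 30010, 30200 and 14660 in SP1, and all 28 had a log2 fold change above 0 (median 0.32), with 0 called and 6 with an unadjusted p under 0.05 with the block. In pair 2 the median of the 28 was -0.11, against 0.58 in pair 1 and 0.53 in pair 3. The part of double positive cells in the levels of the cell cycle genes was not tested. The sum of 14 housekeeping genes ranged from 50070 to 61360 in SP3 and from 49420 to 58960 in SP1.

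**Figure D4:**
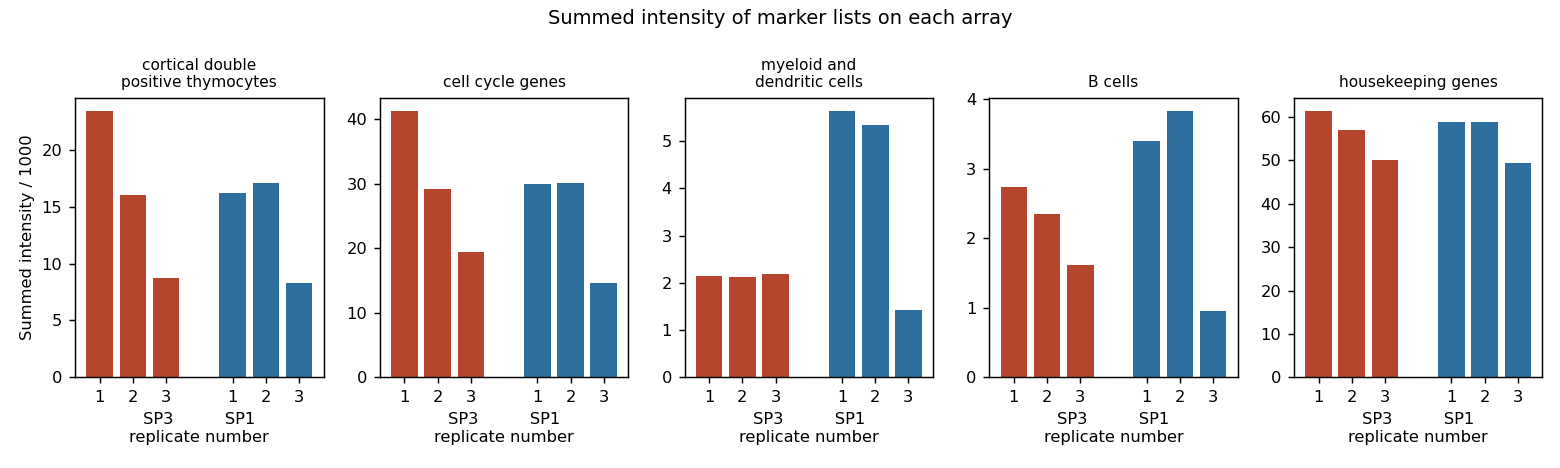
Summed intensity, divided by 1000, of 5 gene lists on each SP3 (red) and SP1 (blue) array by replicate number. Double positive and cell cycle sums are lowest in replicate 3 of both subsets, myeloid and B cell sums are highest in SP1 replicates 1 and 2, and housekeeping sums vary least.

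Metabolic, signalling and regulator lists, each gene read by its probe set of highest mean, gave no calls in either direction with or without the block. Bcl2l11 among the regulators of apoptosis and Zbtb16 among the lineage factors were called with the block by other probe sets only. Of 14 glycolytic enzymes 13 had a log2 fold change below 0 (median -0.23), while 52.6% of all genes had one above 0. Slc2a3, a glucose transporter, read 459, 726 and 875 in SP3, against 790, 1013 and 1646 in SP1 (-0.71, adjusted p = 0.109 with the block). The medians were -0.07 for 19 genes of cholesterol synthesis and uptake, -0.02 for 20 genes of the NF-κB pathway, -0.05 for 18 genes of CD3 chains and proximal TCR signalling, -0.08 for 29 negative regulators of TCR signalling, 0.04 for 22 JAK-STAT and SOCS genes, -0.02 for 23 lineage factors and -0.01 for 23 regulators of apoptosis. Between 1 and 9 genes of each of these lists had an unadjusted p under 0.05 with the block. Within them, Hivep3, a zinc finger protein, came close to the threshold, with 903, 1175 and 1039 in SP3, against 1925, 1470 and 2550 in SP1 (-0.89, adjusted p = 0.0546 with the block). Gimap3, a GTPase of lymphocyte survival, also came close, with 958, 1102 and 853 in SP3, against 518.5, 601 and 431 in SP1 (0.89, adjusted p = 0.0576 with the block). Nfkb2, a subunit of NF-κB, had a difference of -0.58 (adjusted p = 0.05002 with the block). Of 13 GPI-anchored surface proteins, Prnp, the prion protein, was called with the block (-0.81, adjusted p = 0.0474), and 8 of the 12 arrays, left out singly, ended that call (adjusted p of up to 0.252, without SP3 replicate 2). Over all genes, 0.121% were called lower with the block. Among 16 regulatory T cell markers Tnfrsf9 alone was called. Of the 16, 10 had a log2 fold change below 0 and 6 above 0 (median -0.13). An unadjusted p under 0.05 with the block was found for 8 of them. Foxp3, the defining factor and one of the 6, read 34.5, 58.0 and 25.5 in SP3, against 24.9, 23.5 and 13.0 in SP1 (0.58, adjusted p = 0.159 with the block). Markers of activated or memory T cells (17), γδ T cells (5), thymic stroma (22) and erythroid cells (9) gave 0 calls, with medians of 0.23, -0.09, 0.0043 and 0.03 and with 5, 2, 2 and 0 genes at an unadjusted p under 0.05 with the block.

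**Figure D5:**
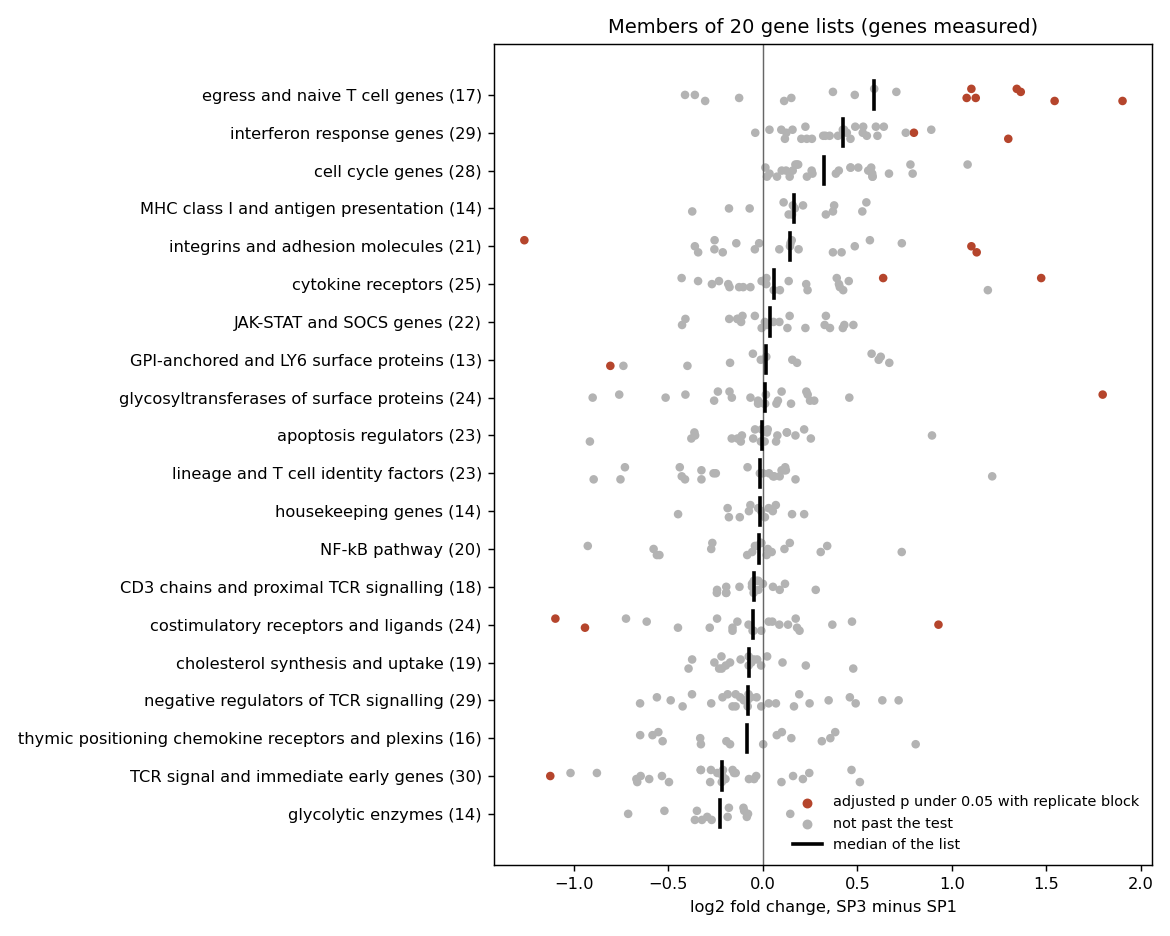
Log2 fold change of SP3 minus SP1 for each measured gene of 20 lists, 1 point per gene read by its probe set of highest mean, with a bar at each list's median. Red points passed an adjusted p of 0.05 with the replicate block, and 7 of them lie in the list of egress and naive T cell genes.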

How the data were processed

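The authors deposited 1 table of linear probe set intensity values for 12 Affymetrix Mouse Genome 430 2.0 arrays, on which background correction and between-array normalization had been done. The study's methods name RMA and the submitters' processing notes name MAS5, so which of them made the values is not settled. No versions are given in the sources used here, and the raw scans were not processed again. Groups and replicate numbers came from the sample titles, and probe sets were named by the platform annotation (34945 with 1 gene, 932 with several, 9160 unnamed here).

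Log2(intensity + 16) was fitted with limma 3.58.1 in R 4.3.3, with 1 mean per subset over all 12 arrays and a mean-variance trend (8 residual degrees of freedom), and again with the replicate number as a block (6). The numbers were taken to pair the arrays. In all 18 pairs of the same number the deviations from the subset means correlated at 0.279 or more. Arrays numbered 1 and 2 also correlated across numbers, at 0.729 for SP4 replicate 1 with SP2 replicate 2 and 0.178 for SP1 replicate 1 with SP3 replicate 2. Replicate 3 went the other way (-0.812 for SP3 replicate 1 with SP1 replicate 3). The correlations thus set replicate 3 apart and do not settle the pairing of numbers 1 and 2. The study names its array repeats alike across the 4 subsets, and the sources used here do not tie those names to the numbers. Steps were tested on simulated data. The members and lists were chosen with earlier results of these data known. By rule the text names genes that changed without the block, the 15 of largest fold per direction with it, sort markers, genes the study names and leading list members, and others were chosen after their values were seen. Replicates are pools, so p-values without the block measure the spread between pools. With the block that shared shift is taken out. Those p-values measure how far the differences between the 4 subsets varied from one replicate number to another. The number of arrays limits the precision.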

Additional observations from a re-analysis of the deposited data

How the results depend on the processing

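Without the block, 5 probe sets rose and 0 fell, and with the replicate block 40 rose and 17 fell. The 5 became 8 with an offset of 1, 11 over probe sets with a mean intensity over 100, 8 without the mean-variance trend and 0 in a fit to the 6 SP3 and SP1 arrays alone. Leaving out 1 array, or all arrays of 1 number, gave 0 to 4 higher and 0 to 3 lower. The numbers after leaving out arrays with the block were 2 to 47 higher and 2 to 22 lower. The lowest came without all 4 arrays of replicate 3 (2 higher and 4 lower) and without those of replicate 1 (12 higher and 2 lower). With the block, an offset of 1 gave 64 and 26, an offset of 64 gave 22 and 4, no trend gave 26 and 6, and any fold gave 97 and 51. Quantile normalization, median centring and the fit to 6 arrays with the block kept both counts within 1.5 times, and the 57 probe sets kept their direction wherever they were tested.

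In the fit without the block, signs turned only for genes that passed no fit, and the values below are from it. With the block, Pdcd1, Il2ra and Ctla4 turned as well, while Icos, Cd8a, Cd4, Ccr7 and Malt1 kept their sign in each setting. Without the block, Pdcd1 was at 0.0096 after quantile normalization. Leaving out arrays gave -0.13 to 0.11 for Pdcd1, -0.33 to 0.24 for Il2ra, -0.16 to 0.55 for Icos, -0.76 to 1.72 for Cd8a, -0.40 to 0.29 for Ctla4, -0.51 to 0.11 for Cd4, -0.086 to 0.40 for Ccr7 and -0.077 to 0.57 for Malt1. Of the alternative list medians, 38 moved by more than the SD over the 3 pairs.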
